A study of Homo sapiens with 4 samples.

Results

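The MYC-MAX network described here consists of 9 genes chosen by name: MYC, its partner MAX, the MAX-binding repressors MXD1, MXD3, MXD4, MXI1, MNT and MGA, and MLX, a MAX-like protein. All 9 were found among the 64252 gene identifiers of the deposited table, and all 9 had enough counts to be tested. The cells were J.gamma1, a line derived from Jurkat T-cell acute lymphoblastic leukemia (T-ALL) cells that lacks phospholipase C gamma 1. In 2 libraries the cells carried a short hairpin RNA against ELOVL5 (shELOVL5), an elongase of polyunsaturated fatty acids, and in 2 they carried a control hairpin (shNC). The labels name 1 cell line and 1 hairpin per group. They do not say whether the 2 libraries of a group came from separate cultures, and the spread behind each p-value may therefore be technical. Every count column also carries the tag D4, which the labels do not explain.

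MYC is a basic helix-loop-helix leucine zipper transcription factor that binds DNA only as a dimer with MAX. The MXD proteins, MXI1, MNT and MGA compete with MYC for MAX and recruit repressors, while MLX pairs with the glucose-sensing Mondo proteins and with some of the MXD proteins. All of these dimers recognise the E-box CACGTG. In T-ALL, MYC is a main effector of NOTCH1 signalling.

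The libraries held 17338719 and 16311139 counts in shELOVL5 and 17246603 and 16254002 counts in shNC, and 1 count stood for 0.0577 to 0.0615 CPM, the count scaled to a common library size. ELOVL5 itself gave 1255 and 1157 counts in shELOVL5 libraries, against 5816 and 5664 counts in shNC libraries. T cell markers were abundant, led by LCK at 473 and 467 CPM in shELOVL5 and 530 and 531 CPM in shNC, then CD3E and ZAP70. Of the 14 T cell markers, 6 fell and 3 rose, while their summed level was 2103 and 2152 CPM in shELOVL5 and 2116 and 2129 CPM in shNC. The part of these shifts in the results on MYC and its targets was not tested. The summed levels of the 8 B cell, 8 myeloid, 7 erythroid and 11 epithelial or fibroblast markers lay between 0.743 and 50.2 CPM in every library, led by CD79A, AIF1, KLF1 and COL1A1. CD79A had 465 and 410 counts in shELOVL5 and 739 and 597 counts in shNC and fell (log2 fold change -0.65, edgeR adjusted p = 0.00267), while the defining B cell genes MS4A1 and PAX5 had at most 5 counts in any library. Of 17461 tested genes, 20.4% passed an adjusted p of 0.05 in edgeR's quasi-likelihood test, made up of 9.21% higher and 11.2% lower in shELOVL5.

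Some of the network's own promoters carry the E-box that the network's proteins bind. Promoter sequences from RefSeq (GRCh38.p14, 250 bases before to 50 after a start) were matched for 8 of the 9 genes, all but MYC, and the exact letters CACGTG stood in those of MXD4, MNT and MLX. The motif is its own reverse complement and therefore reads the same on both strands. It is given in capitals within its surroundings, on the strand of the gene, because these 3 genes are themselves members of the family that reads it.
MXD4 (chr4:2262327-2262359, minus strand): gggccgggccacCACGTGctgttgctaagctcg
MNT (chr17:2401233-2401268, minus strand): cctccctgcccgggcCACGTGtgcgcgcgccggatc
MLX (chr17:42567035-42567070, plus strand): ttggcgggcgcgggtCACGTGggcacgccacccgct
The core begins at position -238 in MXD4, -193 in MNT and -50 in MLX, counted from the start base as 0. The same letters occurred in 7.26% of all 35116 promoters of this length. That share is per promoter, and the 8 network genes had 13 promoters. Counted by gene, 12.7% of 10377 tested protein-coding genes held the letters in at least 1 promoter. A match describes the letters only and does not show that a protein binds there.

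MYC was lower in the shELOVL5 cells. The gene (ENSG00000136997, GRCh38 chromosome 8, 127735434 to 127741434, plus strand) gave 1780 and 1789 counts in shELOVL5 libraries, against 2908 and 2937 counts in shNC libraries. As library-scaled levels these were 102 and 108 CPM in shELOVL5 and 171 and 183 CPM in shNC. Both shELOVL5 libraries lay well below both shNC libraries, and the libraries of a group lay close together. The mean was 105 ± 4.53 CPM in shELOVL5 and 177 ± 8.35 CPM in shNC (SD, n = 2 each). MYC therefore fell by 40.7%, with a 95% interval of -45.8% to -35.1% (log2 fold change -0.75, SE 0.0585, edgeR adjusted p = 1.35e-05). In bulk RNA, fewer cells that express a gene and less RNA per cell cannot be told apart. By p MYC ranked 125 among all tested genes, while by size its log2 fold change stood at the 5.31 percentile.

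MAX (ENSG00000125952, chromosome 14, 65006174 to 65102695, minus strand), the obligate partner of MYC, gave 135 and 135 CPM in shELOVL5 and 126 and 124 CPM in shNC. The groups did not overlap, as was the case for 60.1% of all tested genes, but the difference was small. The log2 fold change was 0.11 and missed the threshold (SE 0.0525, edgeR adjusted p = 0.174), with a 95% interval of -0.391% to 17.04%.

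**Figure D1:**
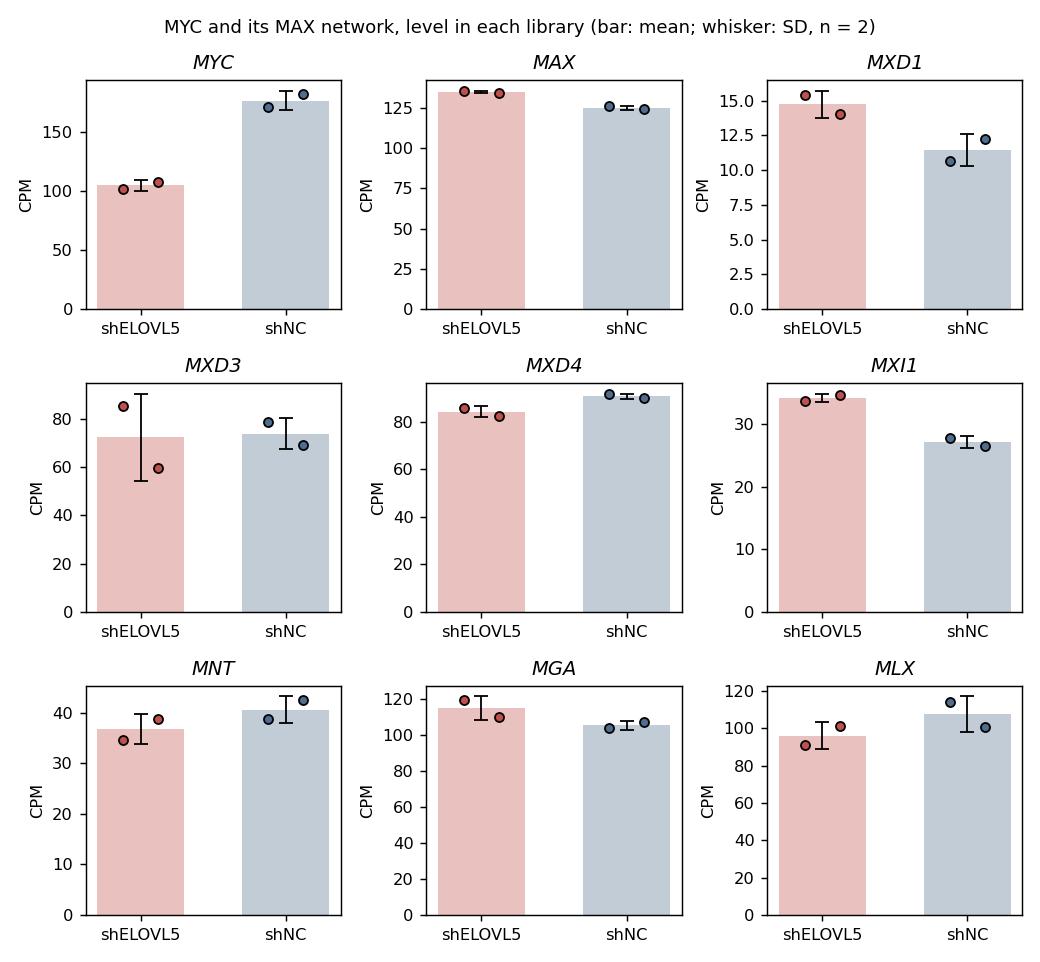
Library-scaled level in CPM (vertical axis, starting at 0) of each network gene in shELOVL5 and shNC cells. Points are libraries, bars are means and whiskers are SD (n = 2); the shELOVL5 libraries of MYC sit at 102 and 108 CPM, below both shNC libraries at 171 and 183 CPM.

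Among the repressors, MXI1 was the only one past the threshold, and only narrowly. MXI1 (ENSG00000119950, chromosome 10, 110207605 to 110287365, plus strand), which antagonises MYC through MAX and the SIN3 corepressor, gave 33.8 and 34.7 CPM in shELOVL5 and 27.9 and 26.5 CPM in shNC. Both shELOVL5 libraries were above both shNC libraries. Its log2 fold change was 0.33 (SE 0.104, edgeR adjusted p = 0.046), a rise of 26.0% with a 95% interval of 7.33% to 47.9%. The direction was the same under all 11 alternatives, but the call held in 3 of them and was lost when any 1 library was left out (edgeR adjusted p = 0.0878 to 0.205).

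MXD1, a MAX partner induced when blood cells differentiate, was the scarcest of the network. It gave 15.4 and 14.0 CPM in shELOVL5 and 10.6 and 12.3 CPM in shNC. The groups did not overlap, yet the log2 fold change of 0.36, of about the size seen for MXI1, did not pass (SE 0.175, edgeR adjusted p = 0.18). MXD1 shares 237 exonic bases on the same strand with SNRNP27, a splicing factor gene that rose (log2 fold change 0.55, edgeR adjusted p = 0.00346). The sources do not state how reads were divided between the pair, and the part of SNRNP27 in the MXD1 value was not tested.

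MXD4, which is related to MXD1, gave 86.0 and 82.6 CPM in shELOVL5 and 91.6 and 90.01 CPM in shNC, a difference that did not pass (log2 fold change -0.11, edgeR adjusted p = 0.277). MXD3, a family member expressed in dividing cells, was the least even, with 85.2 and 59.6 CPM in shELOVL5 and 78.6 and 69.3 CPM in shNC. Its 95% interval, from -35.3% to 48.3%, spans 0 widely. MXD3 shares 926 exonic bases with RAB24 on the same strand and 1158 with PRELID1 on the opposite strand. Where the MXD3 count was higher within the shELOVL5 group, that of PRELID1 was lower, at 2486 against 2829, and the summed counts of the pair were 3978 and 3815 in shELOVL5 and 4078 and 3821 in shNC. Within shNC the counts of replicates 1 and 2 were 1338 and 1114 for MXD3 and 2740 and 2707 for PRELID1. These counts are not scaled for library size. As library-scaled levels PRELID1 gave 142 and 171 CPM in shELOVL5 and 161 and 168 CPM in shNC. In each group PRELID1 was thus lower in CPM in the library where MXD3 was higher. The part of PRELID1 in the MXD3 value was not tested.

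MNT and MGA are the large repressors of the network, and neither passed. MNT, which is present in most cells and opposes MYC directly, gave 34.6 and 38.8 CPM in shELOVL5 and 38.7 and 42.4 CPM in shNC, with overlapping groups (log2 fold change -0.14, edgeR adjusted p = 0.379). MGA, the scaffold that brings MAX into the variant Polycomb complex PRC1.6, gave 119 and 110 CPM in shELOVL5 and 103 and 107 CPM in shNC (log2 fold change 0.12, edgeR adjusted p = 0.199). MLX, the partner of the Mondo proteins, gave 90.9 and 101 CPM in shELOVL5 and 114 and 101 CPM in shNC. The groups overlapped, and the log2 fold change of -0.16 missed the threshold (edgeR adjusted p = 0.174). MLX shares 770 exonic bases with PSMC3IP on the opposite strand, and PSMC3IP fell (log2 fold change -0.55, edgeR adjusted p = 0.00868).

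In all, 1 of the 9 network genes passed as lower and 1 as higher, 2 in all, where 20.4% of all tested genes passed. A count that small is near the background share. The median log2 fold change of the 9 genes was -0.03, against 0.01 over all tested genes.

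**Figure D2:**
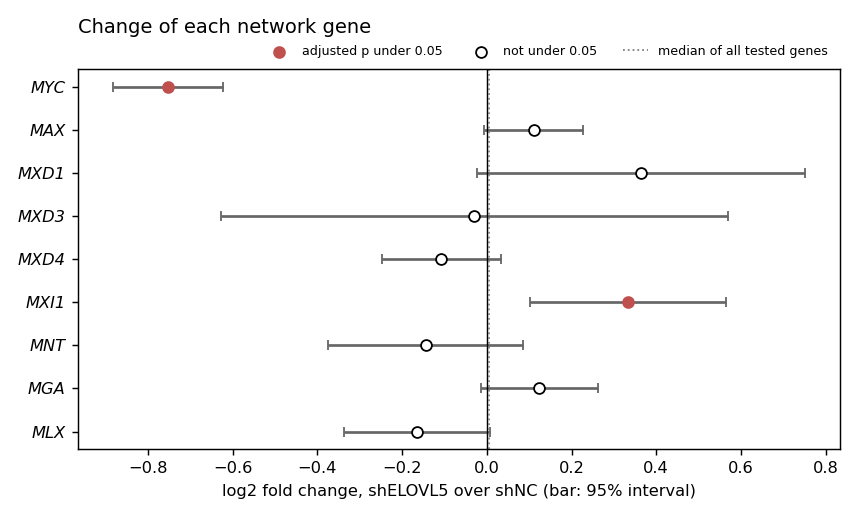
Log2 fold change of shELOVL5 over shNC (horizontal axis) for each network gene, with its 95% interval from edgeR. MYC stands at -0.75, and of the others only the interval of MXI1, at 0.33, does not reach 0.

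Scaled for gene length, MYC was the most abundant network transcript in every library, but its lead over MAX was smaller in shELOVL5. In TPM (counts divided by exon length and scaled to a common sum), MYC averaged 135 ± 7.23 in shELOVL5 and 227 ± 12.8 in shNC (SD, n = 2 each), and MAX averaged 118 ± 0.622 in shELOVL5 and 109 ± 0.23 in shNC. MLX followed, at 87.3 ± 7.48 TPM in shELOVL5 and 97.2 ± 7.70 TPM in shNC. MXD3 came next, at 54.3 ± 13.1 TPM in shELOVL5 and 55.2 ± 4.41 TPM in shNC, and then MXD4, at 46.2 ± 0.837 TPM in shELOVL5 and 49.5 ± 0.159 TPM in shNC. In shELOVL5 the libraries of MXD3 and MXD4 overlapped, and in shNC those of MXD3 were higher. MXI1, at 28.8 ± 0.876 TPM in shELOVL5 and 22.7 ± 0.59 TPM in shNC, stood next to MGA, at 25.1 ± 1.19 TPM in shELOVL5 and 22.9 ± 0.743 TPM in shNC, above MGA in both shELOVL5 libraries and overlapping it in shNC. MNT had 16.3 ± 1.47 TPM in shELOVL5 and 17.9 ± 1.32 TPM in shNC. MXD1 was lowest, at 8.97 ± 0.514 TPM in shELOVL5 and 6.94 ± 0.758 TPM in shNC.

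MYC made up 25.1% and 26.9% of the summed network TPM in shELOVL5, against 35.9% and 38.7% in shNC. The ratio of MYC to MAX in TPM was 1.11 and 1.19 in shELOVL5 and 2.00 and 2.17 in shNC. In CPM it was 0.750 and 0.803 in shELOVL5 and 1.36 and 1.47 in shNC. Which of MYC and MAX led in shELOVL5 thus depended on the length scaling. Set against the summed TPM of MXD1, MXD3, MXD4, MXI1 and MNT, the ratio of MYC was 0.798 and 0.962 in shELOVL5 and 1.41 and 1.57 in shNC. On this length-scaled measure MYC was thus below its 5 summed competitors in both shELOVL5 libraries and above them in both shNC libraries. The lengths were unions of all annotated exons, 3001 bases for MYC and 4607 to 8728 for the competitors. The lengths of the transcripts present were not measured and other lengths were not tried, so the side of 1 may depend on this choice. In CPM, which is not scaled for length, the ratio was below 1 in every library, at 0.399 and 0.471 in shELOVL5 and 0.691 and 0.76 in shNC. The log2 ratio differed by -0.76 between the groups, and the two-sided exact permutation test gave p = 0.333, the smallest that 2 against 2 libraries allow. The competitors' sum itself was 163 and 146 TPM in shELOVL5 and 154 and 150 TPM in shNC, so its groups overlapped. These are transcript ratios, and protein levels were not measured.

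**Figure D3:**
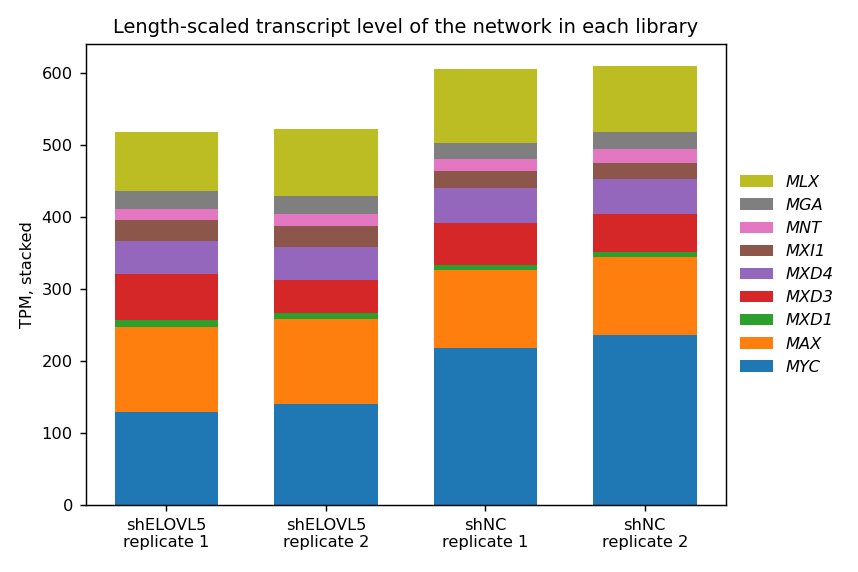
Stacked level of the 9 network genes in TPM (vertical axis, starting at 0) in each library. The MYC part is 130 and 140 TPM in shELOVL5 and 218 and 236 TPM in shNC, while the other parts differ less.

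Of the relatives of MYC and MLX outside the 9 genes, MYCN fell with MYC. MYCN, best known from neuroblastoma, gave 238 and 225 counts in shELOVL5 and 429 and 413 counts in shNC (log2 fold change -0.90, SE 0.133, edgeR adjusted p = 0.000905). At 13.6 and 13.6 CPM in shELOVL5 and 25.2 and 25.7 CPM in shNC it was far less abundant than MYC. MYCL (log2 fold change 0.04) and MLXIP, which encodes the Mondo protein MondoA (-0.05), did not pass. MLXIPL, which encodes the liver-type Mondo protein ChREBP, had 0 counts in 3 libraries and 2 in the other, shNC replicate 2. MLXIPL was not tested. Of the other 3 genes, none was higher by edgeR, at an unadjusted p under 0.05 (0 genes), by DESeq2 (0) or by limma-voom (0). By edgeR 9.21% of all tested genes were higher and 11.2% lower, and 3 genes are too few to be set against these shares.

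Genes known to be induced by MYC were lower more often than higher. Of 30 such targets outside ribosome biogenesis, 17 fell and 1, the chaperonin gene HSPD1, rose, against 11.2% and 9.21% of all tested genes. Calls were more frequent among abundant genes. Of protein-coding genes with a promoter sequence and a mean of at least 20 CPM, 19.4% with the E-box fell and 14.8% rose. Without the E-box, 18.1% of such genes fell and 14.0% rose. Their median level was 67.7 CPM with the E-box and 64.8 CPM without it. The promoter-matched targets were more abundant, with medians of 199 CPM with it and 238 CPM without it, so these shares are not matched for abundance. The median log2 fold change of the 30 targets was -0.23. The 4 with the smallest p were MTHFD2, a mitochondrial folate enzyme, BCAT1, which starts the breakdown of branched-chain amino acids, SLC1A5, a glutamine transporter, and SHMT2, which makes glycine from serine. MTHFD2 gave 256 and 261 CPM in shELOVL5 and 547 and 532 CPM in shNC (log2 fold change -1.06). BCAT1 gave 86.3 and 87.3 CPM in shELOVL5 and 181 and 187 CPM in shNC (-1.09). SLC1A5 (-0.96) and SHMT2 (-0.81) were also lower in both shELOVL5 libraries than in either shNC library. The well-known targets ODC1 (0.05), LDHA (0.10), CAD (-0.17) and CDK4 (-0.13), chosen after their values were seen, did not pass.

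MTHFD2, SHMT2 and SLC1A5 are also known targets of ATF4, the transcription factor of the amino acid stress response. ATF4, also picked after its values were seen, gave 208 and 205 CPM in shELOVL5 and 502 and 506 CPM in shNC (log2 fold change -1.29, edgeR adjusted p = 1.95e-08). Without those 3 genes, a choice made after seeing the data, 14 of the other 27 targets fell and 1 rose, with a median of -0.17. The other 27 may hold further ATF4 targets, and the part of ATF4 in these values was not tested. The list had 0 genes higher without either shELOVL5 library and 3 higher without shNC replicate 1, and 13 to 15 lower without any 1 library.

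Of 22 MYC targets of the nucleolus and its growth programme, 7 fell and 0 rose by edgeR, where 9.21% of all tested genes were higher and 11.2% lower. Of protein-coding genes with a promoter sequence and a mean of at least 20 CPM, 18.1% to 19.4% fell and 14.0% to 14.8% rose. The promoter-matched nucleolar targets were more abundant than those genes, with medians of 121 CPM with the E-box and 127 CPM without it, against 67.7 and 64.8 CPM. At an unadjusted p under 0.05 in edgeR 1 of the 22 targets was higher, and 0 were by DESeq2 and 0 by limma-voom. The median log2 fold change of the 22 was -0.11. SRM, which encodes spermidine synthase and is not itself a ribosome assembly gene, gave 69.3 and 77.0 CPM in shELOVL5 and 128 and 129 CPM in shNC (-0.81). PA2G4 (-0.31), a growth regulator, NOP56 (-0.26), a core protein of small nucleolar ribonucleoproteins, and NIP7 (-0.40), a ribosome assembly factor, also fell. Without shELOVL5 replicate 2 only 3 fell, and NIP7 did not pass (edgeR adjusted p = 0.0606), while 1 gene of the list passed as higher without shNC replicate 1.

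Of the genes known to be repressed by MYC, none passed as higher. Of 16 tested among 18, 4 fell and 0 rose by edgeR, against 11.2% lower and 9.21% higher over all tested genes. No rise was called at an unadjusted p under 0.05 in edgeR (0 genes), by DESeq2 (0) or by limma-voom (0). The ferritin heavy chain gene FTH1 gave 871 and 835 CPM in shELOVL5 and 1321 and 1255 CPM in shNC (-0.59). CEBPA (-0.66), a myeloid transcription factor, and the stress-linked genes NDRG1 (-0.29) and NDRG2 (-0.45) fell too, though 2 of the 4 passed without either shELOVL5 library or shNC replicate 1. The cell cycle inhibitor genes CDKN1A (0.19) and CDKN1B (-0.04), chosen after their values were seen, did not pass.

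**Figure D4:**
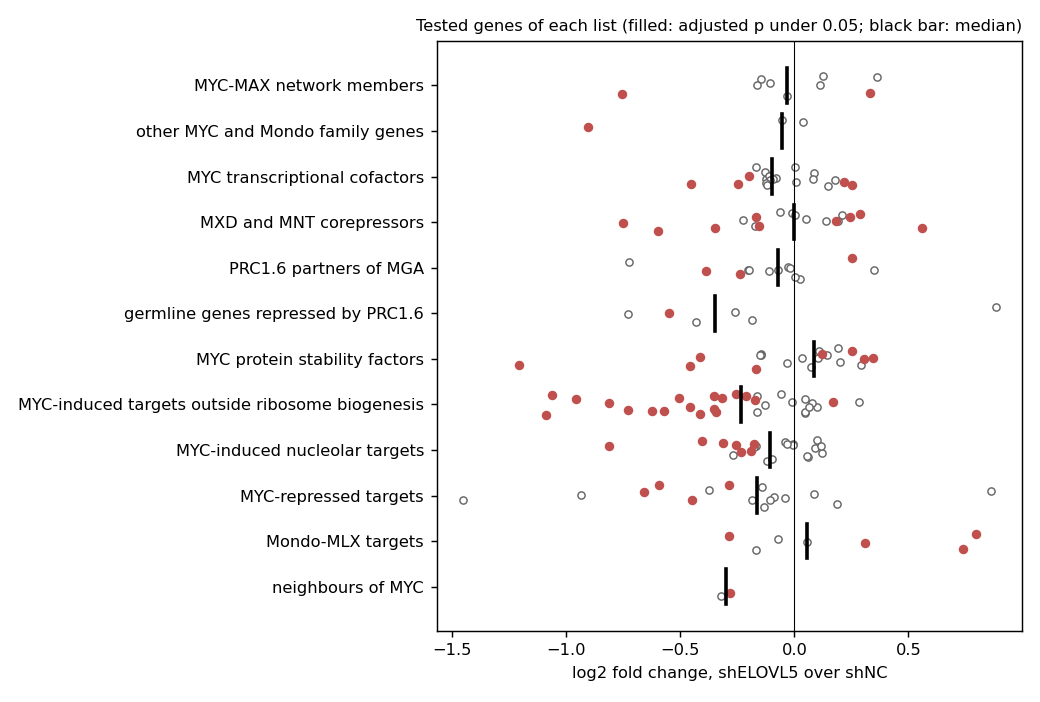
Log2 fold change of shELOVL5 over shNC (horizontal axis) for the tested genes of each list. Filled points passed an adjusted p of 0.05 and black bars are medians; the targets outside ribosome biogenesis have 17 filled points below 0 and 1 above.

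The E-box was set beside these changes. In the 26 promoter-matched targets outside ribosome biogenesis, 13 held CACGTG, and 6 of these 13 fell, as did 9 of the 13 without it. Among the 18 matched nucleolar targets, 6 held it, 3 of which fell, as did 4 of the 12 without it. Over tested protein-coding genes, 10377 of 12919 had a promoter sequence. Of the 1320 with the motif 15.4% fell and 11.7% rose, and of the 9057 without it 13.8% fell and 10.99% rose. The median log2 fold changes were -0.01 in both sets (-0.0149 with and -0.0053 without it). The median GC content was 68.7% and 67.0%, taking for each gene its promoter of highest GC. The difference between these sets was not tested.

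The letters around the core are shown for 3 targets of small p and the 4 of largest p among those that hold it, since the same core stands in genes that fell and in genes that did not pass. Where a promoter held several cores, as in ODC1 and EIF4E, the one nearest the start is shown. The first 3 fell.
BCAT1 (chr12:24949067-24949102, minus strand): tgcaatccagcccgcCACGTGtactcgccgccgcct
SRM (chr1:11060197-11060232, minus strand): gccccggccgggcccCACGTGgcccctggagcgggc
RCC1 (chr1:28518021-28518056, plus strand): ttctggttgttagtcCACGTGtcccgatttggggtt
The other 4 did not pass.
PES1 (chr22:30591877-30591912, minus strand): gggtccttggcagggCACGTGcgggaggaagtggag
ODC1 (chr2:10447987-10448022, minus strand): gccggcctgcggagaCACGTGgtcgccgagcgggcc
EIF4E (chr4:98929185-98929220, minus strand): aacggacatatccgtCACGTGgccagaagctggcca
MYBBP1A (chr17:4555337-4555372, minus strand): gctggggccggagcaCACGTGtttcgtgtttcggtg
Their log2 fold changes were -1.09 for BCAT1, -0.81 for SRM and -0.51 for RCC1, the gene of a nucleotide exchange factor of RAN. They were 0.06 for PES1, 0.05 for ODC1, 0.08 for EIF4E and -0.03 for MYBBP1A.

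Of 20 cofactors through which MYC activates transcription, 3 fell and 2 rose, with a median log2 fold change of -0.10. Over all tested genes 20.4% passed, so that these 5 of 20 are near the background. Those that fell included RUVBL1 (-0.45), an ATPase of chromatin-remodelling complexes, and WDR5 (-0.25), which helps to recruit MYC to chromatin. The elongation factor genes SUPT6H (0.22) and PAF1 (0.25) rose, PAF1 being named after its value was seen. Only 1 fell without shELOVL5 replicate 1, where WDR5 did not pass, and 1 rose without either shELOVL5 library.

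Of 18 genes of the SIN3, HDAC and NCOR corepressors that MXD, MXI1 and MNT recruit, 5 fell and 4 rose, with a median of 0.00, against 11.2% lower and 9.21% higher over all tested genes. Of protein-coding genes with a promoter sequence and a mean of at least 20 CPM, 18.1% to 19.4% fell and 14.0% to 14.8% rose. RBBP4, a histone-binding subunit, gave 322 and 311 CPM in shELOVL5 and 533 and 531 CPM in shNC (log2 fold change -0.75, edgeR adjusted p = 8.6e-07). SUDS3, a SIN3 subunit, fell by 0.35 on the log2 scale, while the SIN3-associated gene ARID4A (0.56) and the deacetylase gene HDAC1 (0.18) rose. The others that passed included SAP18 (0.25), which rose, and HDAC2 (-0.17), RBBP7 (-0.15) and BRMS1L (-0.60), which fell. SIN3A (0.14) and SIN3B (-0.01), the scaffolds themselves, did not pass. The number lower was 2 with library totals only or no low-count filter, and 3 with limma-voom, robust=FALSE or the replicate block. It was also smaller when any 1 library was left out, and fewer rose without shELOVL5 replicate 1.

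Among 13 partners of MGA in PRC1.6, 2 fell and 1 rose, with a median of -0.07. These 3 of 13 are near the 20.4% that passed over all tested genes. CBX3 (-0.39), a heterochromatin protein, and TFDP1 (-0.24), an E2F partner, fell, and RYBP (0.25) rose, though RYBP passed neither without any 1 library nor with no low-count filter, nor did TFDP1 pass without shELOVL5 replicate 2. The PRC1.6-specific genes PCGF6 (0.03), L3MBTL2 (-0.07) and E2F6 (-0.03) did not pass. Of 18 germline genes that this complex silences, 4 had 0 counts in every library and 6 could be tested. SMC1B, a meiotic cohesin gene, fell (-0.55, edgeR adjusted p = 0.0391), but not without shELOVL5 replicate 2 or either shNC library, nor with library totals only, no low-count filter, limma-voom or robust=FALSE. No germline gene rose by edgeR, at an unadjusted p under 0.05 (0 genes), by DESeq2 (0) or by limma-voom (0). By edgeR 9.21% of all tested genes were higher, and 6 genes are too few to be set against that share.

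Of 20 tested among 21 factors that set the stability of the MYC protein, 4 fell and 4 rose, with a median of 0.09, where 11.2% of all tested genes were lower and 9.21% higher. Of protein-coding genes with a promoter sequence and a mean of at least 20 CPM, 18.1% to 19.4% fell and 14.0% to 14.8% rose. SKP2, a ubiquitin ligase subunit that both degrades and coactivates MYC, gave 48.4 and 39.9 CPM in shELOVL5 and 99.95 and 104 CPM in shNC (log2 fold change -1.21, SE 0.0927, edgeR adjusted p = 1.4e-05). FBXW7, the ubiquitin ligase subunit that targets phosphorylated MYC and is often mutated in T-ALL, gave 39.0 and 37.8 CPM in shELOVL5 and 51.8 and 53.6 CPM in shNC (-0.46). The ubiquitin ligase gene TRIM32 (-0.41) and the deubiquitinase gene USP22 (-0.17) also fell. BTRC (0.34), AXIN1 (0.31), PPP2R5A (0.25) and SET (0.12) rose. The number that rose was 0 without shELOVL5 replicate 1 or shNC replicate 1, 1 without shELOVL5 replicate 2 or with no low-count filter and 2 without shNC replicate 2, and 2 fell without shELOVL5 replicate 2.

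On the MLX side of the network, 3 of 7 tested Mondo targets rose and 1 fell, where 9.21% of all tested genes were higher and 11.2% lower. KLF10, a transcription factor gene, gave 62.0 and 48.0 CPM in shELOVL5 and 32.5 and 33.3 CPM in shNC (log2 fold change 0.74). PFKFB3 (0.31), a regulator of glycolysis, and the arrestin-like gene ARRDC4 (0.80) rose, and TKFC (-0.29), a triose kinase gene, fell. ARRDC4 did not pass without shELOVL5 replicate 2 or shNC replicate 2, neither it nor TKFC passed with no low-count filter, and TKFC passed only without shNC replicate 1 among the fits that left out a library. TXNIP, the best known Mondo target, had 4 and 0 counts in shELOVL5 and 2 and 0 counts in shNC, too few to test.

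The genes whose centred log2 CPM lay nearest to that of MYC over the 4 libraries were PTPRS, C9orf40, SNHG7, BAHCC1 and SLC35E2B, among 7520 tested genes that averaged 20 CPM or more. Their distances ran from 0.0193 for PTPRS to 0.0648 for SLC35E2B, and their log2 fold changes from -0.78 to -0.73. PTPRS, a receptor tyrosine phosphatase gene, gave 61.9 and 66.8 CPM in shELOVL5 and 105 and 113 CPM in shNC. With 4 libraries in 2 groups such likeness rests mainly on the size of the group difference.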

How the data were processed

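RNA was sequenced in 4 libraries, 2 per group, which were grouped by their titles. The authors deposited raw counts per gene. Per the submitters' processing notes, HISAT2 2.2.0, StringTie and build hg38 were used; for annotation, counting and strand nothing is stated. Symbols came from a name table that matched 56105 identifiers, and coordinates, exon lengths and overlaps from GENCODE release 29 on GRCh38.

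Counts were tested with edgeR 4.0.16 in R 4.3.3 (filterByExpr with a minimum count of 10, TMM, glmQLFit with robust=TRUE, glmQLFTest, group as the only term), with Benjamini-Hochberg adjustment over all 17461 tested genes and a 0.05 threshold. Fold changes give shELOVL5 over shNC, CPM are TMM-scaled, and 95% intervals come from the same fit. TPM used exon-union lengths. The E-box comparison was limited to protein-coding genes after too few of all tested genes matched a promoter. Alternatives used DESeq2 1.42.0 and limma 3.58.1, other scalings, other filters, robust=FALSE, a replicate block and leaving out each library. The script was tested on simulated data. With spread drawn from the dispersion trend the share of false calls stayed within the limit set for the test, though not always within the nominal rate. With spread drawn gene by gene as widely as estimated, the share of false calls exceeded both the nominal rate and the limit set for the test. The limit was then kept for the trend case only. All calls and shares called are therefore less certain, among them those near the threshold, such as MXI1.

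The 9 genes and the lists were chosen with earlier results of these data known. From each list up to 4 genes past the threshold with the smallest p were named, with all genes of lists of 4 or fewer and the most abundant markers (3 for T cells, 1 for other types). Others named are members set beside them after their values were seen. Intervals cover these libraries only. Some members of the lists and 1 promoter sequence are not reported here.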

Additional observations from a re-analysis of the deposited data

How the results depend on the processing

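MYC passed as lower under all 11 alternatives, with log2 fold changes of -0.80 to -0.71. MXI1 passed with RLE size factors, library totals only and DESeq2. The count of network genes called higher was 0 with no low-count filter, limma-voom, robust=FALSE and the replicate block, and 0 to 0 without any 1 library. With the replicate block, MXI1 had an adjusted p of 0.067 in edgeR; the replicate numbers share no stated batch, and the deviations of same-numbered libraries correlated at 0.00449 over 8855 genes. The block gave 1544 genes higher and 1896 lower, against 1609 and 1953 without it. With no low-count filter 899 genes were higher, and without 1 library 696 to 1347 were higher and 1176 to 1616 lower. Library totals only gave 1927 higher and 1677 lower. MXD3 changed sign with library totals only (0.0045), without shELOVL5 replicate 2 and without shNC replicate 1; without 1 library its log2 fold change was -0.32 to 0.20. MYCL changed sign without shNC replicate 1, with log2 fold changes of -0.077 to 0.15 without 1 library. Among MYC-induced targets outside ribosome biogenesis, 2 were higher with library totals only and 2 with DESeq2, and 0 to 3 without 1 library. Of the nucleolar targets, 1 was higher with library totals only, 0 to 1 without 1 library, and 3 to 6 were lower without 1 library. The MYC ratio to its competitors differed by -0.74 in CPM. The causes were not tested. With 2 libraries per group, changes of the size seen for MXD1 could not be told from 0 at its depth.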

Other observations

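Of 9 genes listed as neighbours of MYC on chromosome 8, 7 had an identifier, and 4 of these 7 had 0 counts in every library. PVT1, a long noncoding RNA gene next to MYC, gave 63 and 59 counts in shELOVL5 and 74 and 74 counts in shNC, which missed the threshold (log2 fold change -0.32, edgeR adjusted p = 0.473). CYRIB, a regulator of RAC1 signalling, gave 122 and 108 CPM in shELOVL5 and 149 and 130 CPM in shNC (log2 fold change -0.28, edgeR adjusted p = 0.0448). CYRIB did not pass without shELOVL5 replicate 2 (edgeR adjusted p = 0.231) or shNC replicate 1 (edgeR adjusted p = 0.166), nor by limma-voom, robust=FALSE, library totals only or with no low-count filter. Only 2 of the 7 neighbours had enough counts to be tested. Of these, none was higher by edgeR, at an unadjusted p under 0.05 (0 genes), by DESeq2 (0) or by limma-voom (0). By edgeR 9.21% of all tested genes were higher and 11.2% lower, and 2 genes are too few to be set against these shares.

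STAG3, a meiotic cohesin gene and the most abundant of the germline list, gave 844 and 479 counts in shELOVL5 and 567 and 877 counts in shNC, so that the groups overlapped and each group's libraries differed widely.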
